A study of Mus musculus with 6 samples.

Results

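Mitochondrial solute carriers were followed in mouse liver between a long and a short fast. They were taken as the protein-coding genes whose symbol begins with Slc25a plus Ucp1, Ucp2 and Ucp3, without Slc25a1, Slc25a13, Slc25a15 and Slc25a20. Of the 55471 genes in the tables, 46 met this rule, and 38 of them had enough counts to be tested among 13812 genes. All livers came from wild-type male C57BL/6J mice, an inbred laboratory strain, of which 3 had fasted for 16 h and 3 for 4 h, and each liver gave 1 library of total RNA. No age of the mice is stated in the labels. The series is about the transport of cholesterol between liver membranes without vesicles, and the comparison of the fasts is its RNA sequencing experiment.

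The inner mitochondrial membrane is closed to most metabolites, and the SLC25 proteins are the gates through it. They are made in the cytosol, recognised by the TOM receptors of the outer membrane and inserted by the TIM22 complex. Each exchanges or imports particular substrates: ADP and ATP, phosphate, carboxylates, amino acids, cofactors or iron. A few members sit elsewhere, such as Slc25a17 in peroxisomes and Slc25a46 in the outer membrane. In liver these carriers connect the mitochondrial steps of gluconeogenesis, urea synthesis, fatty acid oxidation and heme synthesis with the cytosol. The uncoupling proteins are relatives, of which Ucp1 carries protons in brown fat.

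Libraries held between 15173653 and 26572532 counts assigned to genes. The hepatocyte markers (Alb, Ttr, Apob and others) summed to 90210 to 102220 CPM after 16 h and 95841 to 103440 CPM after 4 h, where CPM is the usual per-library scaling of counts, here with library sizes adjusted by TMM. Values given as a mean carry the SD over 3 livers, and changes are log2 fold changes of 16 h over 4 h with their SE. Replicate 3 of the 4 h fast stood apart. Its 7 lung markers summed to 186 CPM, against 5.76 to 8.44 CPM in the 16 h libraries and 6.29 and 5.35 CPM in the other 4 h libraries. It also gave more weight to short transcripts. Relative to the mean of the other 4 h livers it was 0.26 higher on the log2 scale in the median of the 3070 genes with the shortest transcripts, and it lay at -0.19 in the median of the 3070 with the longest. Results that rest on this library are given with and without it. In whole liver, fewer cells of a type and less RNA per cell cannot be told apart. The labels do not say whether mice shared a cage, a litter or a day of collection. The p-values set the difference between the fasts against the spread of these 6 livers within each fast. The spread of a gene was estimated with information from all tested genes.

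The changes of the carriers were modest and went both ways. By edgeR's quasi-likelihood test with Benjamini-Hochberg adjustment over all tested genes, 3 of the 38 rose after 16 h, 5 fell and 30 did not pass. The 8 that passed are 21.1% of the carriers tested, and over all genes 18.7% passed, so the share of carriers was near the background. By direction the background was 9.18% higher and 9.51% lower. In the edgeR fit without 4 h replicate 3, 4 of 39 tested carriers passed as higher and 7 as lower, against 11.1% higher and 9.73% lower, or 20.9% in either direction, of all 14312 genes tested there. The risers were Slc25a51, Slc25a12 and Slc25a46, and the fallers included Slc25a37, Slc25a30, Slc25a17 and Slc25a45. None of the 8 was doubled or halved on the fitted scale, while 25.6% of all called genes were. The median log2 fold change of the tested carriers was 0.09, against -0.03 over all genes, and their median size of change was 0.33, against 0.27.

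The 3 values of the 16 h fast lay above all 4 h values for 4 tested carriers and below them for 10. Together these are 36.8% of the carriers, against 39.4% of all genes, and over all genes the split was even, with 19.7% above and 19.7% below. Slc25a3, Slc25a5, Slc25a11, Slc25a28, Slc25a33 and Slc25a39 were higher in every 16 h liver than in 4 h replicates 1 and 2. They overlapped through 4 h replicate 3 alone. Leaving out any liver can only add such separations, for any gene. The share of all genes that gain one without 4 h replicate 3 is not given here, so these carriers do not show whether the split depends on that library. By sign, 23 of the 38 changes were positive and 15 negative. The 95% interval of the change excluded both a doubling and a halving for 35 of the 38, against 72.4% of all genes. It excluded a 1.5-fold change either way for 16. The shares over all genes for the signs and for the 1.5-fold bound are not given here.

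**Figure D1:**
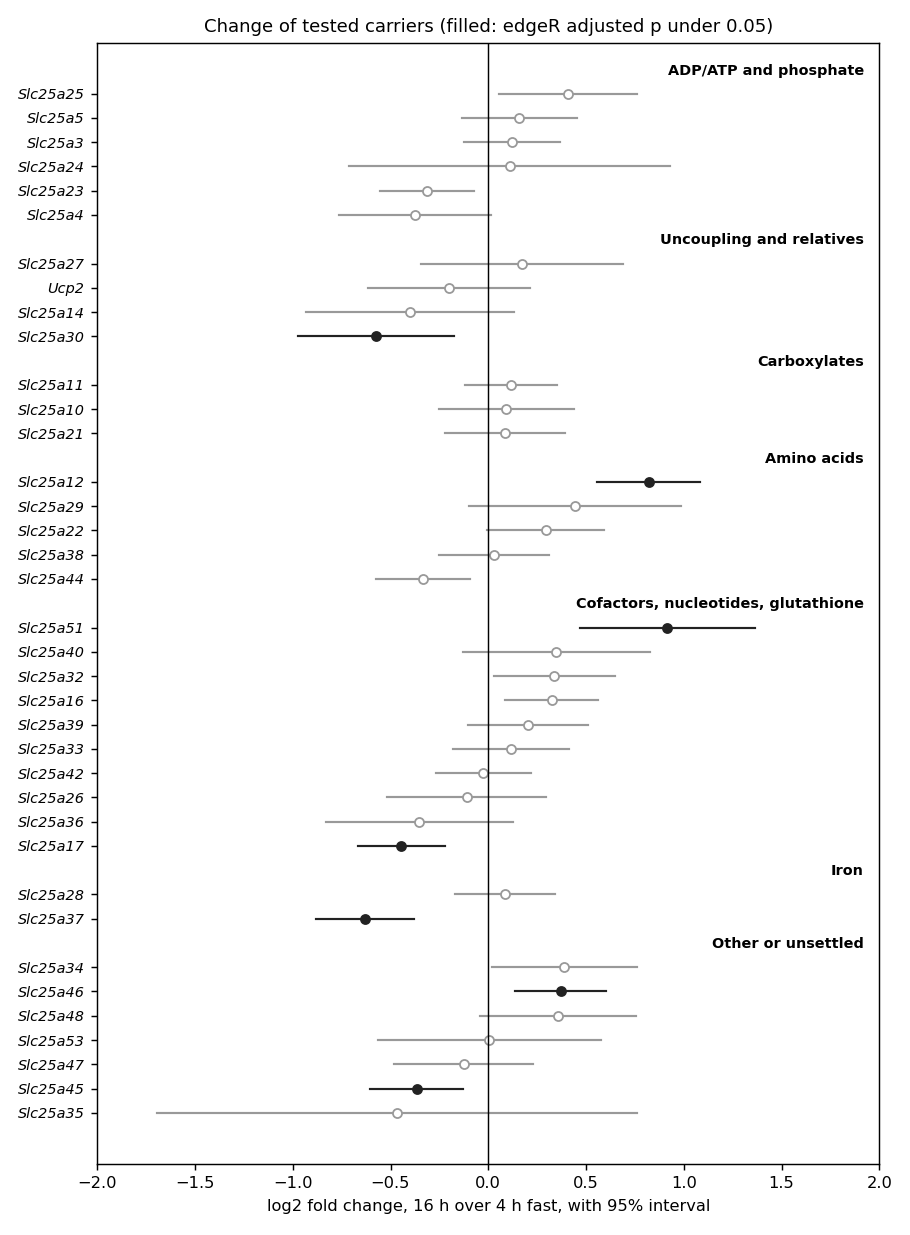
Log2 fold change of tested carriers, 16 h over 4 h fast (x axis), each with its 95% interval from the edgeR fit, grouped by substrate. Filled points passed at an adjusted p under 0.05: 3 to the right of 0 and 4 of the 5 fallers to the left, since 1 called carrier is not drawn, with most intervals inside a doubling and a halving.

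Slc25a51, the carrier that brings NAD+ into mitochondria, had the largest rise. It was at 110, 204 and 153 CPM in replicates 1, 2 and 3 of the 16 h fast, against 70.6, 86.0 and 90.8 CPM after 4 h. All 16 h livers were above all 4 h livers, but the 16 h livers themselves spread widely, with replicate 2 highest. The log2 change was 0.92 ± 0.20 (SE, edgeR adjusted p = 0.0116, n = 3 each), or 1.89-fold between the means. Without 4 h replicate 3 the change missed the threshold (1.003, edgeR adjusted p = 0.103), while the call held without any other single liver.

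Slc25a12, an aspartate and glutamate carrier of the malate-aspartate shuttle known as aralar, rose in a narrow range. Its levels were 22.2, 25.6 and 24.7 CPM after 16 h and 14.8, 13.7 and 12.5 CPM after 4 h. The groups were well apart and each was narrow. The change was 0.82 ± 0.12 (edgeR adjusted p = 9.99e-04), and it stayed between 0.77 and 0.90 with every call kept when single livers were left out. In liver the close relative Slc25a13 is the better known form of this carrier and aralar is best known from brain, heart and muscle. The 6 skeletal muscle markers summed to 0.904 to 3.51 CPM in the 16 h livers and 0.967 to 4.86 CPM in the 4 h livers.

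Slc25a46, which acts in the outer membrane on mitochondrial shape and lipid supply, also rose. Its gene is at chr18:31556111-31609911 on the minus strand of GRCm38. It was at 51.8, 57.1 and 54.3 CPM after 16 h, against 45.8, 42.3 and 38.1 CPM after 4 h, without overlap. Its change of 0.37 ± 0.11 (edgeR adjusted p = 0.0329) lost its call without any one of the 16 h livers (0.0648, 0.130 and 0.102 for replicates 1, 2 and 3) or without 4 h replicate 2 (0.0580). With plain library totals in place of TMM factors it also missed (edgeR adjusted p = 0.0561).

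Slc25a37, mitoferrin 1, which imports iron for heme and iron-sulfur cluster synthesis, had the largest fall. It was at 30.8, 32.4 and 33.2 CPM after 16 h and at 55.8, 49.9 and 43.6 CPM after 4 h. The 16 h livers were nearly equal and all below the 4 h livers. The change was -0.63 ± 0.11 (edgeR adjusted p = 0.00326), and every fit without a single liver kept the call, at -0.71 to -0.52. Its relative Slc25a28, mitoferrin 2, was at 27.9 ± 1.7 CPM in 16 h livers and 26.4 ± 2.9 CPM in 4 h livers and did not pass (0.09 ± 0.12, edgeR adjusted p = 0.647). Scaled by exon length, the ratio of mitoferrin 1 to mitoferrin 2 was 0.719, 0.741 and 0.691 after 16 h, against 1.46, 1.21 and 0.919 after 4 h. The ratio was lower in every 16 h liver, and no test of it was made. This and the other ratios between relatives were chosen after the values were seen. Their size depends on the length used, while the order of the livers does not. By exon length Slc25a37 had 6.80 CPM per kb and Slc25a28 7.24, as means over all livers. By the median length of coding transcripts they had 9.81 and 23.6, so which mitoferrin was the more abundant after 4 h is not settled.

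Mitoferrin 1 is abundant in red cell precursors, so the erythroid markers are given beside it. The 8 of the 9 listed markers that were in the tables summed to 53.5, 99.4 and 90.0 CPM after 16 h and to 176, 153 and 148 CPM after 4 h. Of those sums Alas2, the erythroid form of the first enzyme of heme synthesis, made up 42.6, 46.4 and 51.1 CPM after 16 h and 97.1, 104 and 96.6 CPM after 4 h. Among the 5 markers tested Alas2 alone passed (-1.09 ± 0.11, edgeR adjusted p = 7.37e-05). Other genes cover 15.5% of its exon bases. The globin genes Hba-a1, Hba-a2, Hbb-bs and Hbb-bt had changes of -0.87 to -0.82, with overlap of the fasts and no call. Of these Hbb-bs was highest, at 5.12, 27.1 and 19.9 CPM after 16 h and 38.4, 26.3 and 26.3 CPM after 4 h. The membrane markers of red cells were at or near 0, with Epb42 at 0 counts and Slc4a1 at no more than 0.258 CPM in any liver. The part of red cells in the fall of Slc25a37 was not tested.

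Slc25a30, a relative of the uncoupling proteins, fell by 0.57 ± 0.18 on the log2 scale. It had 36.0, 42.3 and 32.3 CPM after 16 h, against 71.4, 49.2 and 43.5 CPM after 4 h. Replicate 1 of the 4 h fast was far above the rest, and without it the change was -0.31. The call (edgeR adjusted p = 0.0489) held only without 4 h replicate 3 among the fits that leave out 1 liver, and it was lost with RLE size factors (0.0531) and with plain library totals (0.0514).

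Slc25a17, the peroxisomal carrier of coenzyme A, FAD and related cofactors, also fell. It was at 39.5, 37.9 and 43.1 CPM after 16 h and at 57.5, 52.6 and 53.9 CPM after 4 h. The groups were apart by more than the spread of either (-0.44 ± 0.10, edgeR adjusted p = 0.0116), yet the call was lost without 4 h replicate 1 (0.0501) or 16 h replicate 1 or 2 (0.0577 and 0.0709).

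Slc25a45, grouped here with carriers whose substrate is not settled, was at 18.0, 18.0 and 18.3 CPM after 16 h and at 22.1, 24.7 and 23.2 CPM after 4 h. The 16 h livers were nearly the same. The fall of 0.37 ± 0.11 on the log2 scale (edgeR adjusted p = 0.0371) was the smallest among the called carriers. It also kept its call only without 4 h replicate 3, and it missed with DESeq2 (adjusted p = 0.0580) and with no filter on low counts (edgeR adjusted p = 0.103).

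**Figure D2:**
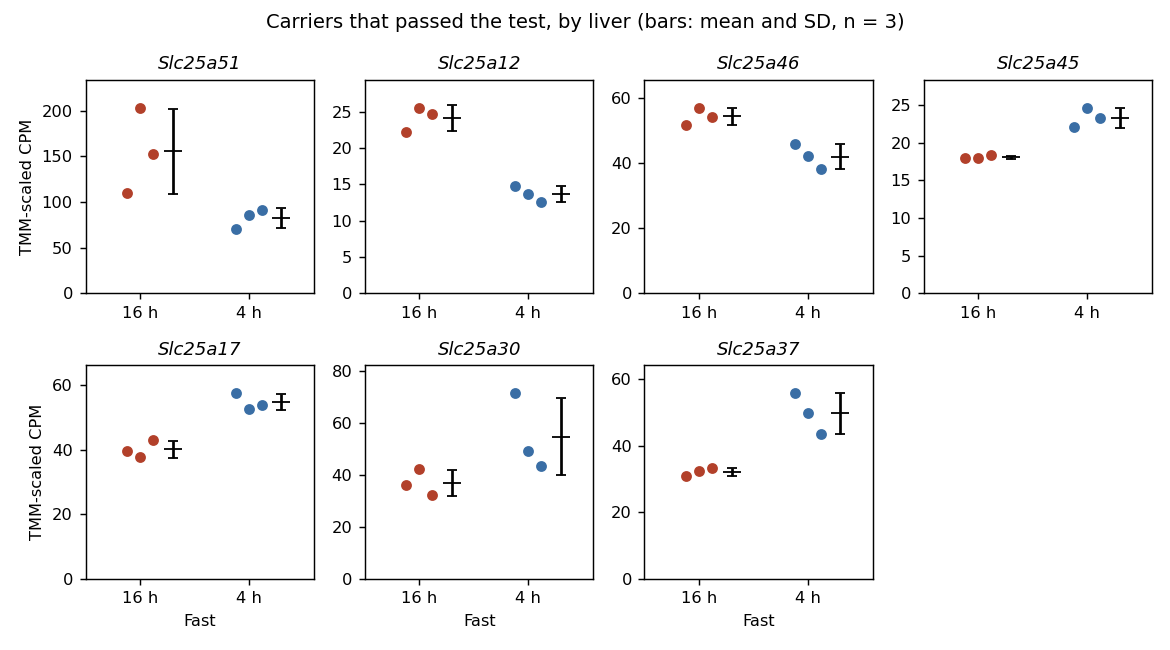
TMM-scaled CPM (y axis, from 0) of 7 of the 8 carriers that passed, with 1 point per liver and bars for mean and SD (n = 3). In each panel the 16 h livers, on the left, and the 4 h livers, on the right, do not overlap; Slc25a51 has its widest spread after 16 h and Slc25a30 after 4 h.

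**Figure D3:**
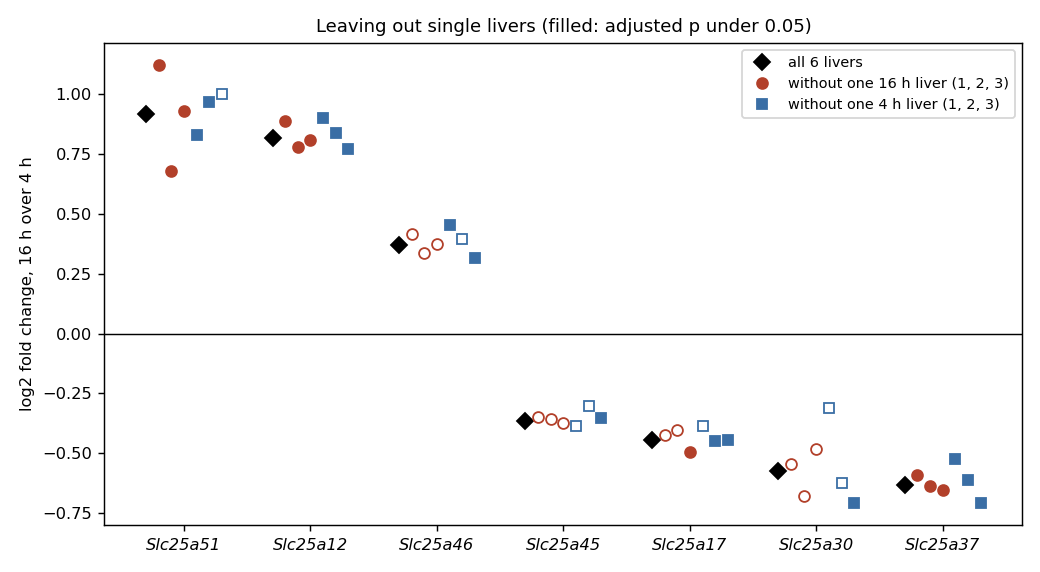
Log2 fold change, 16 h over 4 h (y axis), of 7 of the 8 called carriers with all 6 livers (diamonds) and without each liver in turn, in replicate order. Filled points passed; Slc25a12 and Slc25a37 are filled throughout, Slc25a51 is open only without 4 h replicate 3, and Slc25a45 and Slc25a30 are filled only without that library.

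In GENCODE M21 on GRCm38 the genes of the 2 largest risers are at chr4:45395923-45408766 (Slc25a51) and chr2:71271063-71367749 (Slc25a12), both on the minus strand. Those of fallers are at chr14:69241848-69285112 (Slc25a37), chr14:75760117-75787037 (Slc25a30) and chr15:81318911-81360812 (Slc25a17) on the minus strand and chr19:5877808-5885878 (Slc25a45) on the plus strand. Other annotated genes cover at most 7.06% of the exon bases of any called carrier.

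Promoters of 4 called carriers are shown so that the clearest riser can be read beside 3 of the fallers. Sequences are from RefSeq on GRCm38.p6, 250 bases up to the RefSeq start, on the strand of the gene. That start differs from the GENCODE M21 start for Slc25a12, Slc25a17 and Slc25a45. The stretches of Slc25a17 and Slc25a45 reach into the gene positions given above. Distances of motifs are counted from the RefSeq start. Slc25a12 is at chr2:71367756-71368005 on the minus strand, Slc25a30 at chr14:75787038-75787287 on the minus strand, Slc25a17 at chr15:81360766-81361015 on the minus strand and Slc25a45 at chr19:5877572-5877821 on the plus strand. Capitals mark matches to any of the motifs searched.
Slc25a12: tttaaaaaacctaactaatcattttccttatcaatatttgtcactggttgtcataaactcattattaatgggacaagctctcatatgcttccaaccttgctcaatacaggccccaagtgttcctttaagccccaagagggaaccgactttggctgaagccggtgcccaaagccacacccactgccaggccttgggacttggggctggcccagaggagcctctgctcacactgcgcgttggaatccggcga
Slc25a30: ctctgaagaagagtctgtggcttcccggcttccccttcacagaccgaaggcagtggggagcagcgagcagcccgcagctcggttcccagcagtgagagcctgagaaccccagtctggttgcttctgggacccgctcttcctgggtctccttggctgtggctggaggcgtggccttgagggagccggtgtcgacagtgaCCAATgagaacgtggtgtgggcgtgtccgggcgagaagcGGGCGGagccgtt
Slc25a17: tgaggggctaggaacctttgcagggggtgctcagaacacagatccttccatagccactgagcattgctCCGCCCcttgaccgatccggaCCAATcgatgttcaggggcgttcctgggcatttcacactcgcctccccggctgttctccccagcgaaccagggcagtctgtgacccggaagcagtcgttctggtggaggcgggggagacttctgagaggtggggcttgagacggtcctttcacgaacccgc
Slc25a45: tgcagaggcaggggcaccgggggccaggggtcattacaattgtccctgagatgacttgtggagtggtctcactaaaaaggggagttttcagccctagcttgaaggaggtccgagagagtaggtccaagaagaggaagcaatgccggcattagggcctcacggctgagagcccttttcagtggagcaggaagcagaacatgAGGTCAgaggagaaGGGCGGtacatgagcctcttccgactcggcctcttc

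Both strands were searched, with motifs chosen after the expression values were seen. The Slc25a12 promoter held no match. The GC box GGGCGG stood 13 bases before the start of Slc25a30, 36 before that of Slc25a45 and, on the opposite strand, 182 before that of Slc25a17. CCAAT stood 52 bases before Slc25a30 and 161 before Slc25a17, and the nuclear receptor site AGGTCA 50 before Slc25a45. Among the 35 carriers with a promoter entry, 22 (62.9%) held the GC box, against 58.2% of 9736 promoters of tested protein-coding genes. CCAAT was in 14 (40%, against 36.6%), AGGTCA in 6 (17.1%, against 10.8%) and the E-box CACGTG in 4 (11.4%, against 8.34%). These sets are unlike, since the 35 include carriers under the count filter and the 9736 do not. Ucp1 and Ucp3, both under the filter, are among the 6 with AGGTCA. Slc25a31, also under it, is among those with the E-box and the GC box. No excess of a motif is read from these shares. The CREB element TGACGTCA was in 1, that of Slc25a36, against 2.65%. No carrier promoter matched the PPAR element, a direct repeat of AGGTCA with 1 base between (0.0411% of the 9736), the glucocorticoid element, AGAACA and its complement with 3 bases between (0.0103%), the FOXO element GTAAACA (2.19%) or the NRF1 element (1.66%). A PPAR element also counts as a match to AGGTCA.

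Of the carriers of ADP, ATP and phosphate none of the 6 tested passed with edgeR or DESeq2, with 2 at an unadjusted edgeR p under 0.05. Slc25a5, the adenine nucleotide translocase that exchanges matrix ATP for cytosolic ADP in liver, was at 438 ± 43.3 CPM in 16 h livers and 392 ± 63.5 CPM in 4 h livers (0.16 ± 0.14, edgeR adjusted p = 0.44). Slc25a4, the heart and muscle form, was at 4.89 ± 0.36 CPM in 16 h livers and 6.34 ± 1.02 CPM in 4 h livers (-0.37 ± 0.18, edgeR adjusted p = 0.164). Per exon length there was 128, 121 and 134 times as much Slc25a5 as Slc25a4 in the 16 h livers and 93.4, 84.2 and 87.8 times as much in the 4 h livers. That ratio was higher in all 16 h livers, and it was not tested. Processed copies of Slc25a5 exist in the genome, of which Slc25a5-ps drew 15 counts in all, and the handling of reads common to them is not stated. Slc25a3, the phosphate carrier, was at 333 ± 25.3 CPM in 16 h livers and 306 ± 23.6 CPM in 4 h livers (0.12 ± 0.11).

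The calcium-dependent carriers of ATP-Mg and phosphate adjust the size of the matrix nucleotide pool. Slc25a25 was at 245, 221 and 333 CPM after 16 h, against 197, 231 and 175 CPM after 4 h. Replicate 3 after 16 h was highest and the groups overlapped (0.41 ± 0.16, edgeR adjusted p = 0.0996), although the fit with no filter on low counts called it (0.00982). Slc25a23 was at 162, 176 and 165 CPM after 16 h and 205, 229 and 192 CPM after 4 h, apart but not called (-0.31 ± 0.11, edgeR adjusted p = 0.0672). It passed without 4 h replicate 3 (edgeR adjusted p = 0.0137). The ratio of Slc25a25 to Slc25a23 per exon length was 1.02, 0.843 and 1.36 after 16 h and 0.647, 0.679 and 0.617 after 4 h, higher in all 16 h livers and not tested. Its size depends on the length used. As means over all livers, Slc25a25 had 29.7 and Slc25a23 35.5 CPM per kb by exon length. By the median length of coding transcripts they had 71.3 and 55.9. The third of them, Slc25a24, was at 1.257 ± 0.544 CPM in 16 h livers and 1.204 ± 0.330 CPM in 4 h livers, and Slc25a41 had no count.

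Among the uncoupling proteins only Ucp2, whose transport role is still debated, was measurable in these livers. It was at 14.5, 19.5 and 16.0 CPM after 16 h and 17.5, 14.8 and 25.0 CPM after 4 h (-0.20 ± 0.19, edgeR adjusted p = 0.483). The groups overlapped, and 4 h replicate 3 was the highest of the 6 livers. That library also held the most of 8 Kupffer cell markers, summing to 176 CPM, against 117, 110 and 97.2 CPM in the 16 h livers and 135 and 102 CPM in the other 4 h livers. Kupffer cells, the macrophages of liver, are a known site of Ucp2 expression. The same library also had the highest sums of other markers. Its 8 neutrophil markers summed to 15.7 CPM, against 2.05, 4.10 and 2.22 CPM in the 16 h livers. The other 4 h livers had 2.21 and 2.45 CPM of these. Its 7 lung markers summed to 186 CPM, far above every other library. The part of any of these cells in the level of Ucp2 was not tested. Without that library the change of Ucp2 was 0.04. Slc25a27 and Slc25a14, related genes best known from brain, were at 2.90 ± 0.25 CPM in 16 h livers and 2.58 ± 0.62 CPM in 4 h livers and at 1.79 ± 0.11 CPM in 16 h livers and 2.35 ± 0.41 CPM in 4 h livers, and neither passed (edgeR adjusted p = 0.641 and 0.274).

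None of the 3 carboxylate carriers passed with edgeR or DESeq2, and none had an unadjusted p under 0.05. Slc25a10, the dicarboxylate carrier that exports malate in gluconeogenesis, was at 185 ± 35.5 CPM in 16 h livers and 174 ± 29.2 CPM in 4 h livers (0.09 ± 0.16). Slc25a11, the oxoglutarate and malate exchanger of the malate-aspartate shuttle, was at 71.9 ± 6.3 CPM in 16 h livers and 66.4 ± 4.1 CPM in 4 h livers (0.11 ± 0.11). Slc25a21, an oxodicarboxylate carrier, was at 12.9 ± 1.8 CPM in 16 h livers and 12.2 ± 0.9 CPM in 4 h livers (0.09 ± 0.14). The fasts overlapped for all 3, and the 95% intervals ran from -0.25 to 0.44, from -0.12 to 0.35 and from -0.22 to 0.39, so a 1.5-fold change lies outside each.

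Of 7 amino acid carriers 5 were tested, and Slc25a12 alone passed, as it did with DESeq2. Slc25a22, a glutamate carrier and the most abundant of them, was at 290, 329 and 411 CPM after 16 h and 289, 294 and 257 CPM after 4 h (0.29 ± 0.14, edgeR adjusted p = 0.157). Slc25a44, which imports branched-chain amino acids, was at 54.8, 59.2 and 54.7 CPM after 16 h and 79.2, 69.3 and 64.3 CPM after 4 h. It lay just outside the threshold (-0.34 ± 0.11, edgeR adjusted p = 0.0538) although the groups did not overlap, and it passed without 4 h replicate 3 (0.00858). Slc25a38, the glycine carrier that feeds heme synthesis, was at 23.0 ± 2.9 CPM in 16 h livers and 22.5 ± 2.1 CPM in 4 h livers (0.03 ± 0.13). Slc25a29, a carrier of basic amino acids, was at 3.51 ± 1.02 CPM in 16 h livers and 2.58 ± 0.24 CPM in 4 h livers (0.44 ± 0.25, edgeR adjusted p = 0.236). Per exon length the ratio of Slc25a22 to Slc25a12 was 16.0, 15.7 and 20.4 after 16 h, against 23.9, 26.4 and 25.2 after 4 h. It was lower in all 16 h livers and was not tested.

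The other carriers of cofactors, nucleotides and glutathione did not pass. Slc25a16, linked to coenzyme A in mitochondria, was at 79.1, 79.3 and 84.8 CPM after 16 h and 69.8, 67.0 and 57.5 CPM after 4 h (0.32 ± 0.11, edgeR adjusted p = 0.0583), apart in all livers. DESeq2 called it (adjusted p = 0.0356), as did edgeR without 4 h replicate 3 (0.0449). Slc25a42, the coenzyme A importer, was at 155 ± 13.4 CPM in 16 h livers and 158 ± 11.3 CPM in 4 h livers (-0.03 ± 0.11). Slc25a39, which imports glutathione, was at 393, 422 and 471 CPM after 16 h and 328, 337 and 453 CPM after 4 h. Its groups overlapped through 4 h replicate 3 alone, and without that library it passed at a change of 0.38 (edgeR adjusted p = 0.0176). Its relative Slc25a40 was at 4.60 ± 0.68 CPM in 16 h livers and 3.58 ± 0.82 CPM in 4 h livers. The ratio of Slc25a39 to Slc25a40 per exon length was 302, 284 and 269.9 after 16 h, against 224, 295 and 489 after 4 h, with overlap.

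Slc25a32, a carrier of folate and FAD, was at 51.9 ± 9.9 CPM in 16 h livers and 41.0 ± 4.2 CPM in 4 h livers (0.34 ± 0.14, edgeR adjusted p = 0.117), and the fit with no filter on low counts called it (0.0443). Slc25a33 and Slc25a36, carriers of pyrimidine nucleotides, were at 18.7 ± 1.9 CPM in 16 h livers and 17.2 ± 2.3 CPM in 4 h livers and at 2.51 ± 0.40 CPM in 16 h livers and 3.21 ± 0.32 CPM in 4 h livers. Their ratio per exon length, Slc25a33 to Slc25a36, was 37.9, 48.8 and 30.1 after 16 h, against 23.1, 27.7 and 31.8 after 4 h, also with overlap. Slc25a26, which imports S-adenosylmethionine, was at 7.56 ± 1.23 CPM in 16 h livers and 8.14 ± 1.69 CPM in 4 h livers. The edgeR adjusted p of Slc25a33, Slc25a36 and Slc25a26 lay between 0.284 and 0.715.

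Of the members with an unsettled or other role, Slc25a47, a carrier largely restricted to liver, had the most counts of any carrier. It was at 646, 699 and 618 CPM after 16 h, against 719, 535 and 888 CPM after 4 h. The 4 h livers spread on both sides of the 16 h livers (-0.13 ± 0.16, edgeR adjusted p = 0.623), and without 4 h replicate 3 the change was 0.07. Slc25a48, which imports choline, was at 15.4 ± 2.6 CPM in 16 h livers and 12.1 ± 2.9 CPM in 4 h livers (0.36 ± 0.18) and it did pass once 4 h replicate 2 was left out (edgeR adjusted p = 0.0315). Slc25a34 was at 15.2 ± 3.2 CPM in 16 h livers and 11.6 ± 1.5 CPM in 4 h livers (0.39 ± 0.17, edgeR adjusted p = 0.131). Slc25a53 and Slc25a35 were among the scarcest tested, at 1.76 ± 0.26 CPM in 16 h livers and 1.76 ± 0.24 CPM in 4 h livers and at 0.553 ± 0.460 CPM in 16 h livers and 0.824 ± 0.364 CPM in 4 h livers. Slc25a35 had 31.3% of its exon bases under Rangrf on the opposite strand, and it was the only carrier with at least 15% in overlap.

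A set of 8 carriers had too few counts to be tested. Slc25a41 and Slc25a54 had 0 counts in all 6 libraries, which allows up to 0.0239 CPM. Ucp1, the brown fat protein, had 3 counts in all, Slc25a43 6, and Ucp3, best known from muscle, and Slc25a31, the testis translocase, 7 each. Slc25a2, an ornithine carrier, had 35 and Slc25a18, a second glutamate carrier, 65. Several members with few or no counts sit next to well counted ones. On chromosome 7 Ucp3 ends 6904 bases before Ucp2, on chromosome 17 Slc25a41 lies 2056 bases from Slc25a23, and on X Slc25a43 lies 18448 bases from Slc25a5. Slc25a29 and Slc25a47 run in opposite directions from starts 162 bases apart on chromosome 12 in GENCODE M21, yet had 387 and 85998 counts in all.

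Levels of different carriers were compared as CPM per kb of exon. They spanned from 0.187 for Slc25a35 to 252 for Slc25a5 among those tested, as means over the 6 livers. At the top, Slc25a5 had 266 ± 26.3 CPM per kb in 16 h livers and 238 ± 38.6 in 4 h livers, and Slc25a47 had 219 ± 13.8 in 16 h livers and 239 ± 59.1 in 4 h livers, so their order was within their spread. Next was Slc25a39 with 156 ± 14.4 CPM per kb in 16 h livers and 135 ± 25.3 in 4 h livers. Below it were Slc25a3, at 60.1 ± 4.6 in 16 h livers and 55.2 ± 4.3 in 4 h livers, Slc25a22, at 57.3 ± 10.4 in 16 h livers and 46.7 ± 3.3 in 4 h livers, and Slc25a10, at 53.5 ± 10.3 in 16 h livers and 50.3 ± 8.5 in 4 h livers, which did not differ beyond their spread after 16 h. With the median length of coding transcripts in place of all exon bases, a choice made after the data were seen, Slc25a47 came first with 394 and Slc25a5 second with 335, and Slc25a3 (216) stood well above Slc25a22 (122) and Slc25a10 (88.6).

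Summed over all carriers, the libraries held 3503, 3775 and 4023 CPM after 16 h and 3504, 3279.5 and 3834 CPM after 4 h, with overlap. The 4 with the most counts, Slc25a47, Slc25a5, Slc25a39 and Slc25a3, made up 49.8% of that sum.

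**Figure D4:**
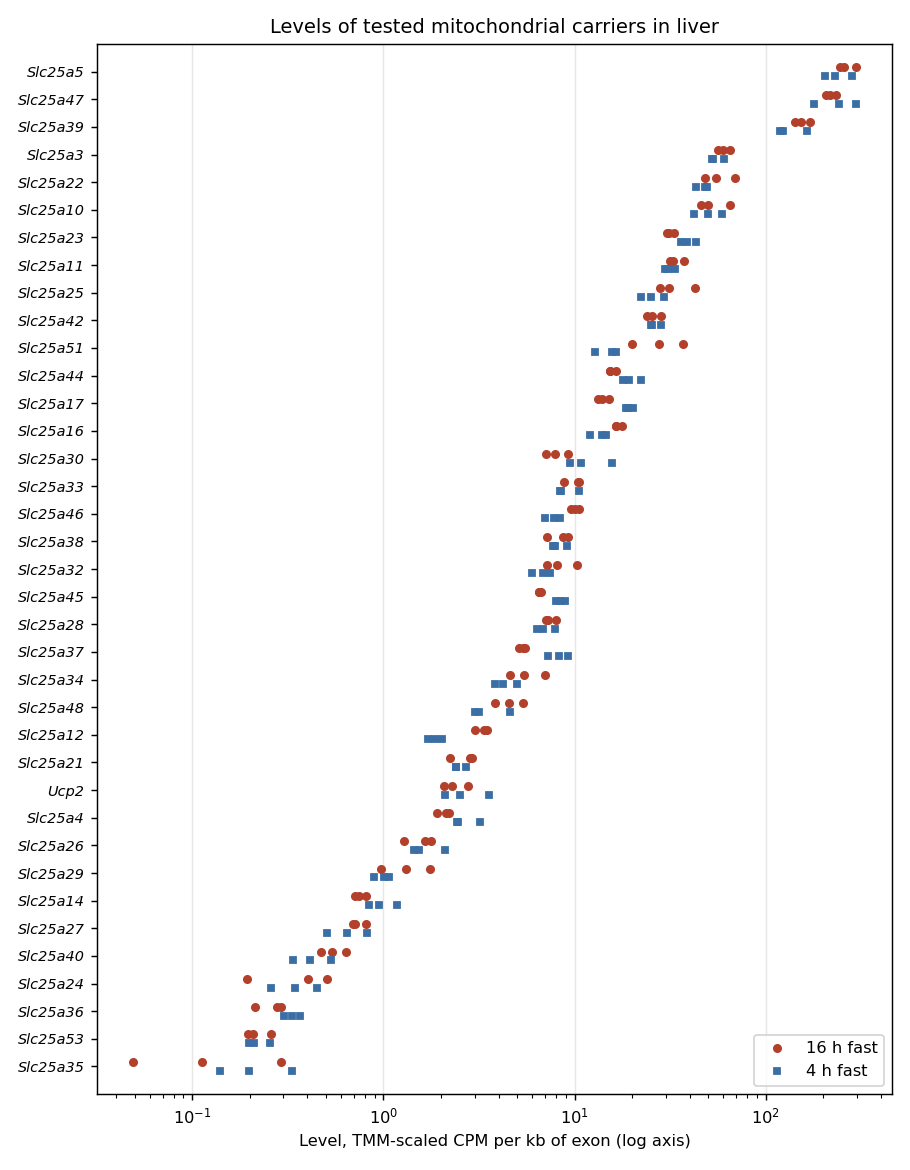
Level of tested carriers in each liver, in TMM-scaled CPM per kb of exon on a log axis, with the 16 h livers above the 4 h livers in each row. Slc25a5, Slc25a47 and Slc25a39 form the top of a range from 0.187 to 252, and the distance between carriers is far larger than that between the fasts.

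The carriers also show how replicate 3 of the 4 h fast stood to the other 4 h livers. Of the 38 tested, that library was the highest of its group for 15 and the lowest for 15. On the log2 scale of CPM plus 0.5, it lay above the mean of the other 4 h livers by 0.52 for Slc25a47, 0.45 for Slc25a39 and 0.37 for Slc25a5, whose coding transcripts have median lengths of 1735, 1645.5 and 1240 bases. For Slc25a30, Slc25a37 and Slc25a12, with 3588, 4174 and 6351 bases, the deviation was -0.44, -0.27 and -0.18. Length did not order every carrier: Ucp2 (3988 bases) lay at 0.62 and Slc25a51 (4433 bases) at 0.22.

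**Figure D5:**
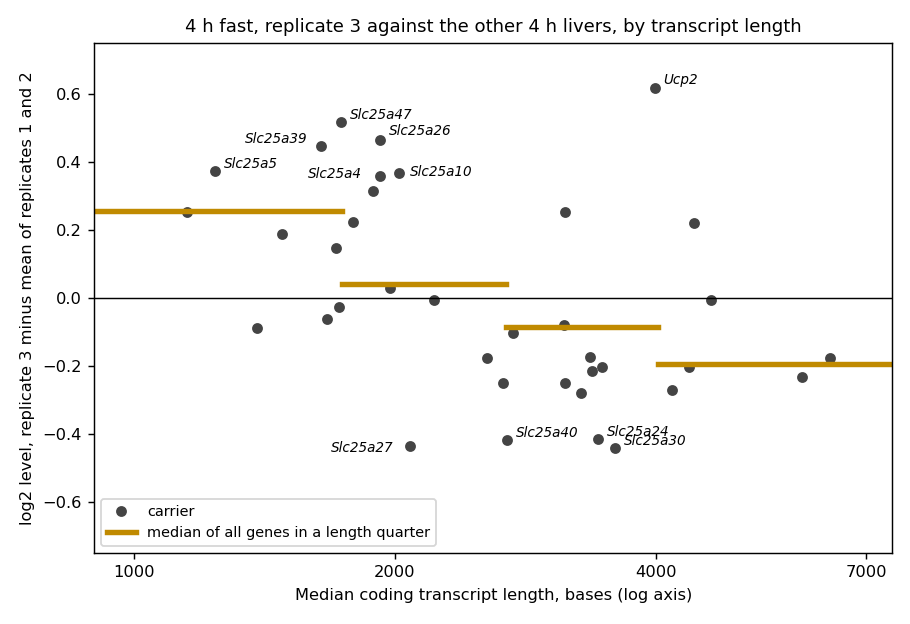
Deviation of 4 h replicate 3 from the mean of the other 4 h livers (y axis, log2) against median coding transcript length (x axis, log scale), 1 point per carrier. The bars give the median of genes with a coding transcript length, in 4 groups of 3070 by length, from 0.256 in the shortest to -0.194 in the longest. They do not cover all tested genes.

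Genes that bring carriers into the membrane were compared from a list of 16. Of the 15 tested, 2 rose, none fell and 13 did not pass, with a median of -0.03. Over all genes edgeR called 9.18% higher and 9.51% lower. By unadjusted edgeR p under 0.05 there were 3 higher and 5 lower of these genes, and the share of all genes at that level is not given here. DESeq2 called 3 higher and 0 lower. Both risers are receptors for precursor proteins on the outer membrane. Tomm20 was at 58.9, 57.5 and 60.1 CPM after 16 h, against 41.6, 38.4 and 38.2 CPM after 4 h (0.58 ± 0.10, edgeR adjusted p = 0.00213), and every fit without 1 liver kept its call. Tomm70a, the receptor that carriers dock on, was at 139, 144 and 143 CPM after 16 h and 119, 110 and 98.7 CPM after 4 h (0.38 ± 0.11, edgeR adjusted p = 0.0301). Its call was lost without 4 h replicate 2 (0.0542), without any one of the 16 h livers (0.0725, 0.109 and 0.104) and with plain library totals (0.0504). Tomm6 had 0 counts, with 84.2% of its exon bases under other genes.

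Other transport proteins of the mitochondrial membranes formed a list of 27. Of the 25 tested, 3 rose, 2 fell and 20 did not pass, with a median of -0.03. The shares over all genes were 9.18% higher and 9.51% lower. Sfxn1, the serine importer, was at 125 ± 20.0 CPM in 16 h livers and 91.0 ± 10.4 CPM in 4 h livers (0.46 ± 0.14, edgeR adjusted p = 0.0378), and its relative Sfxn2 at 73.0 ± 7.4 CPM in 16 h livers and 56.9 ± 4.2 CPM in 4 h livers (0.36 ± 0.11, edgeR adjusted p = 0.0456). Micu2, which regulates the calcium uniporter, fell, with a change of -0.41 ± 0.12 (edgeR adjusted p = 0.0303). Smdt1, which links regulators to the pore of that channel, also fell (-0.58 ± 0.16, edgeR adjusted p = 0.0310), and 16.6% of its exon bases lie under other genes. The pore gene Mcu did not pass (-0.09 ± 0.12). Each of these 4 calls was lost without 16 h replicate 2 and also without 16 h replicate 3, and in both fits 0 genes of the list passed as higher. Sfxn1 also missed the threshold in the fits that leave out 4 h replicate 1 (0.50, edgeR adjusted p = 0.0666) and 4 h replicate 3 (0.38, edgeR adjusted p = 0.0519). Only 1 of the 6 fits that drop a liver still called Micu2. It lacked 4 h replicate 3 (edgeR adjusted p = 0.00166), and the others gave 0.0745 to 0.127. Sfxn2 also missed when 4 h replicate 1 was dropped (edgeR adjusted p = 0.104), and Smdt1 when 16 h replicate 1 was (0.101). With plain library totals 2 rose and 3 fell. Smdt1 was highest in 4 h replicate 3, and without that library its change was -0.32 and its call held (edgeR adjusted p = 0.0159).

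Markers of other cells showed a few changes. By edgeR, falls were called for 1 of 8 Kupffer cell markers, 1 of 7 endothelial, 2 of 7 stellate cell and 1 of 3 adipocyte markers, and none was called higher. DESeq2 called 2 Kupffer cell, 1 endothelial, 2 stellate cell and 1 adipocyte marker lower, and 1 endothelial marker higher. Of the 9 hepatocyte markers tested, 3 rose and 2 fell. For all genes the edgeR shares were 9.18% higher and 9.51% lower. None of the tested markers of bile duct cells (4), neutrophils (3), lymphocytes (3), skeletal muscle (2) or lung (5) was called by edgeR or DESeq2, with 1 neutrophil and 2 lymphocyte markers at an unadjusted edgeR p under 0.05.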

How the data were processed

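Counts per Ensembl gene were deposited by the authors as whole numbers, not normalised, with 1 table per library. Per the series' design text and the submitters' processing notes, reads were trimmed with Trimmomatic, aligned to GRCm38 (mm10) with STAR and counted with HTSeq, and the authors name DESeq2 for their comparison. Their versions, the annotation release and the strand setting: not given in the sources used here. Reads outside genes (6.44% to 7.14% of a library) and reads in several genes (5.78% to 6.59%) stayed out. The lines for multi-mapped reads were 0, so reads of near-identical genes are uncertain.

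Symbols, biotypes and exon lengths came from GENCODE M21 (GRCm38), in which 99.57% of the 55471 identifiers were found. Tests used edgeR 4.0.16 in R 4.3.3 (filterByExpr, 13812 genes; TMM; robust quasi-likelihood fit with the fast as only term; 2-sided p, Benjamini-Hochberg over all genes, threshold 0.05). The pipeline was tested on simulated counts. Alternatives were RLE factors, plain totals, DESeq2 1.42.0, other count filters, single livers left out and a replicate block. Libraries of one group differed by a chi-square per degree of freedom of at least 17.3, so none was a duplicate.

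Members, role groups, the 13 gene lists and tests were chosen with earlier results of these data known. Called members are given with all 6 values and other members by means or counts; a called carrier and a few list genes are counted in the totals but not reported here by name. Of the list genes Tf and Ahsp were not matched. A zero is read as up to 3 counts, which covers counting error only. Promoter entries were matched by symbol, the first taken where there were several; Slc25a37, Slc25a46 and Slc25a51 had none. The 4 promoters printed were picked after values were seen.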

Additional observations from a re-analysis of the deposited data

How the results depend on the processing

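Over the 38 tested carriers and 12 alternatives, 415 values stayed on the same side of the threshold, 28 lost a call and 9 gained one. The sign of the change turned in 17 values of 8 carriers, Slc25a47 and Ucp2 among them, and 0 of these were called in either fit; the stricter count filter gave no value for 4. With no filter on low counts 5 carriers were higher in place of 3, and 1 import gene was lower in place of 0. Plain library totals left 1 import gene higher in place of 2. Leaving out single livers gave 2 to 4 carriers higher and 1 to 7 lower, 1 to 3 import genes higher and 0 lower, and 0 to 4 other transport genes higher and 0 to 2 lower. Over all genes it gave 671 to 1594 higher and 696 to 1393 lower. The number of carriers that fell was 1 without 16 h replicate 1 or 2 or 4 h replicate 1, 2 without 16 h replicate 3 or 4 h replicate 2, and 7 without 4 h replicate 3. These fits use 5 livers; the cause of each loss beyond that was not tested. Same-numbered livers correlated in their deviations at 0.0876, 0.0933 and 0.0455, so the numbers were not read as pairs, and the replicate block left 3 carriers higher and 5 lower and changed no call of a carrier. Groups of 3 limit precision, most of all for carriers near 1 CPM, such as Slc25a35 and Slc25a24.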
